A study of Mus musculus with 16 samples.

Results

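Clec1b, Itgb3, Pf4, Treml1, Ppbp and Itga2b are genes known for their use in platelets and megakaryocytes, and their probes were followed here on arrays of splenic B cells. They were taken by gene name, as every probe on the array that is no control and carries 1 of these 6 names. That gave 9 probes of 55681, and 6 gene names of 34832. Clec1b had 3 probes, Itgb3 had 2, and each other gene had 1. The series compared B cells of mice without the 3'RR with B cells of wild-type mice. The 3'RR, or 3' regulatory region, is a group of enhancers behind the constant genes of the IgH locus.

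Deficient mice are entered as strain BALBC and carry the 129 IgH allele knocked out on that background, while wild-type mice are entered as strain 129. Genotype and strain entry therefore cannot be told apart in any comparison given here. No age is given. Every sample was total RNA of spleen cells selected on beads for B220, a B cell surface marker, with 0.2 µg of RNA and a RIN, a score of RNA integrity, of 9. Each of 2 slides held 4 arrays of deficient and 4 of wild-type cells. The series text names 4 mice of each genotype, and 8 arrays of each were analysed, with no label that ties an array to a mouse. Spread between arrays may thus be technical, and the p-values measure that spread alone.

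Platelets are cell fragments without a nucleus that are shed by megakaryocytes, the large polyploid cells of bone marrow and, in mice, also of spleen. They carry RNA made in the megakaryocyte, and they adhere to leukocytes. Fibrinogen binds to the integrin αIIbβ3, whose subunits are the products of Itga2b and Itgb3. CLEC-2, encoded by Clec1b, is a receptor for podoplanin that signals through the kinase Syk. Pf4 and Ppbp encode CXC chemokines stored in α-granules, and Treml1 encodes TLT-1, a receptor of the same granules.

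Probes are 60 bases long, and coordinates follow mm9 as the file headers give them. Whether a probe lies in a coding exon or a UTR was not analysed here. The sequences of the Clec1b and Itgb3 probes are printed because the probes of each gene measure the same gene at separate places, and the results below turn on whether they order the groups alike. In genome order along the plus strand of chromosome 6, the Clec1b probes lie at chr6:129350113-129350172, chr6:129353604-129353663 and chr6:129355286-129355345, and their starts are 3491 and 1682 bases apart.
Clec1b A_55_P1962010: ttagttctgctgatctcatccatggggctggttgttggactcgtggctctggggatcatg
Clec1b A_55_P1992617: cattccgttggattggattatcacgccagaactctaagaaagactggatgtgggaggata
Clec1b A_55_P1962011: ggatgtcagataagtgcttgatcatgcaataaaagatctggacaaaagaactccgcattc
The Itgb3 probes lie on the plus strand at chr11:104528625-104528684 and chr11:104531672-104531731, with starts 3047 bases apart.
Itgb3 A_66_P126293: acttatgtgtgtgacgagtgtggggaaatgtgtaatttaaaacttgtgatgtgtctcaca
Itgb3 A_52_P553890: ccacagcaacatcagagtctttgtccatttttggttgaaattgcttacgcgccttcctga

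The single probes of the other members lie at chr5:91202275-91202334 (Pf4), chr5:91198970-91199029 (Ppbp), chr17:48506365-48506424 (Treml1) and, on the minus strand, chr11:102319453-102319661 (Itga2b). Pf4 and Ppbp are neighbours, with probe starts 3305 bases apart. The Itga2b interval spans 209 bases for a probe of 60.

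Levels are log2 processed signal minus the 75th percentile of the array's signals, so a level of 0 equals that percentile, and levels are compared only within a probe. "Well above background" is the scanner software's own call for a spot. A gene was tested if a probe of it was well above background on at least 4 of the 16 arrays, and its brightest such probe stood for it. Of the 6 genes, 5 passed and Ppbp did not, since its probe was well above background on 2 arrays. Itga2b passed with exactly 4 arrays. The threshold for every test was an adjusted p under 0.05 over all 22744 genes tested (limma, Benjamini-Hochberg).

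Over both slides, 2 of the 5 tested genes were higher in deficient cells, Clec1b and Itgb3, and none was lower. Among all genes tested, 17.6 percent were called, 7.64 percent as higher and 9.95 percent as lower. On slide 2 the only member called was Itgb3, as higher, where 8.6 percent of all genes were called and 4.33 percent as higher. On slide 1 Clec1b and Itgb3 were called, as higher, where 25.0 percent of all genes were called and 9.19 percent as higher. The difference of the Clec1b genotype effect between slides was called as well, against 15.9 percent of all genes. Pf4, Treml1 and Itga2b passed in none of these genotype tests. The plot of all 9 probes by array shows that no single pattern is shared by the 6 genes.

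**Figure D1:**
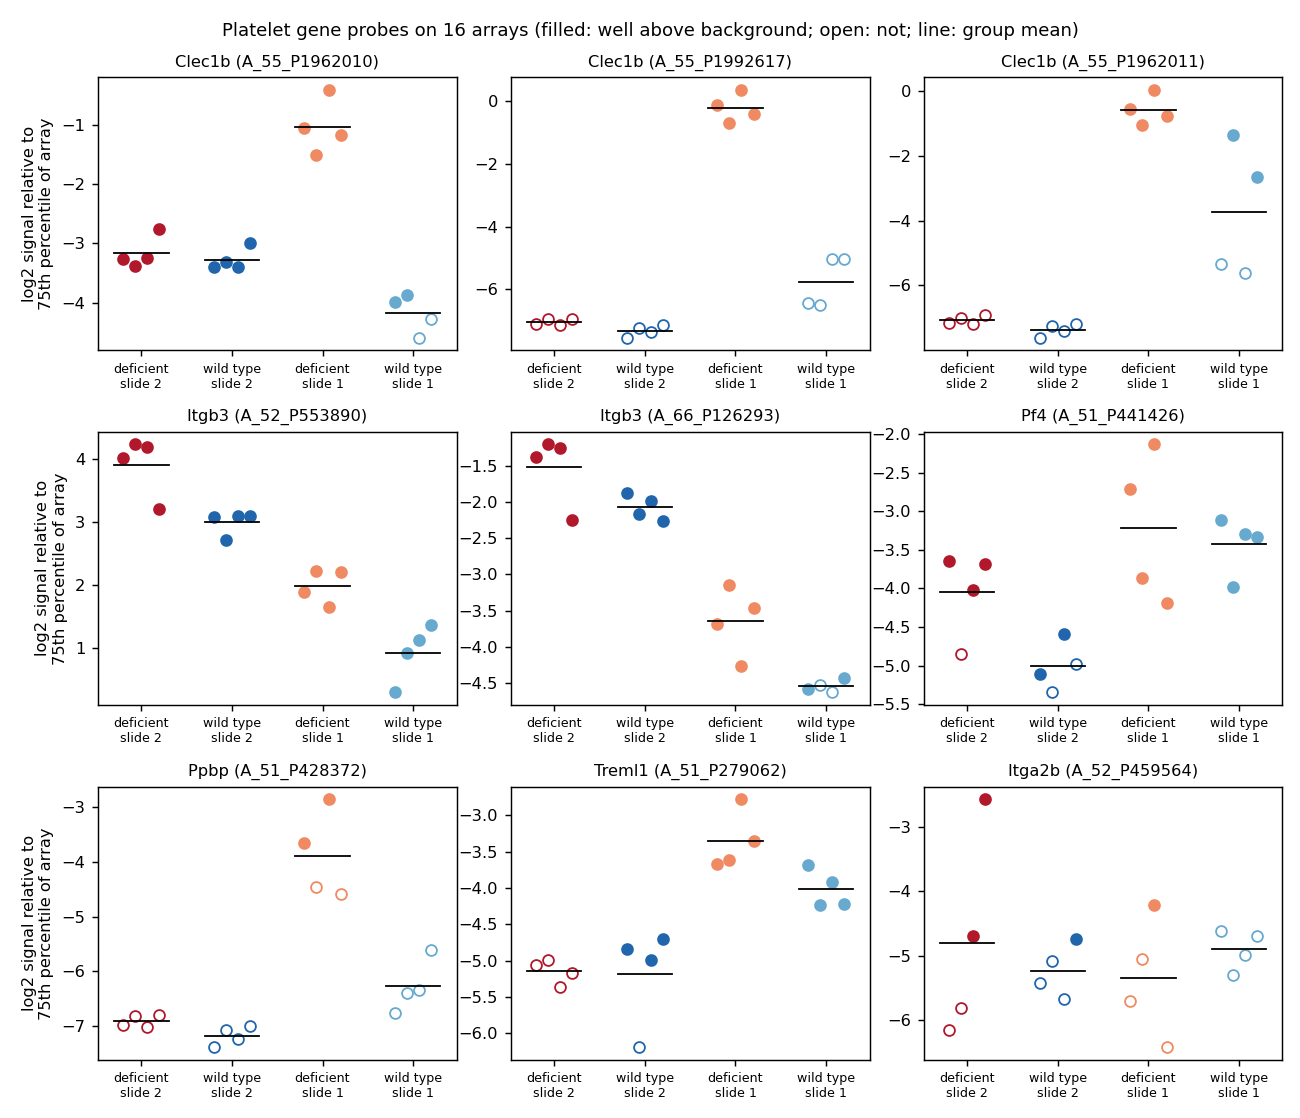
Each panel is 1 probe, with its level on 16 arrays (log2 signal relative to the 75th percentile of the array) by genotype and slide. Points are arrays, filled where well above background and open where not, and lines are means of 4 arrays. At A_55_P1962010 the genotypes separate on slide 1, where deficient levels lie between -1.51 and -0.41, and overlap on slide 2, and the Itgb3 panels show higher levels on slide 2 than on slide 1 in both genotypes.

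Clec1b was higher in deficient cells on slide 1 and did not pass the test on slide 2. On slide 1, its brightest probe by the rule, A_55_P1962010, had levels of -1.05, -1.51, -0.41 and -1.18 in deficient arrays 9, 10, 11 and 12, against -3.98, -3.86, -4.59 and -4.27 in wild-type arrays 2, 5, 6 and 8. The groups did not overlap, and the highest wild-type array lay more than the whole deficient range below the lowest deficient array. Wild-type arrays 6 and 8 were not well above background. The fit gave a difference of 3.14 (SE 0.22, limma adjusted p = 8.846e-07), an 8.82-fold higher signal in deficient cells. On slide 2 the levels were -3.27, -3.38, -3.24 and -2.75 in deficient arrays 1 to 4, against -3.39, -3.31, -3.40 and -2.99 in wild-type arrays 1, 2, 3 and 5. Those groups overlapped, and array 4 was the highest of the deficient ones. The difference there was 0.11 (SE 0.22, limma adjusted p = 0.826), a miss that does not show equal levels.

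The test of the difference between slides, slide 2 minus slide 1, gave -3.03 for Clec1b (SE 0.31, limma adjusted p = 0.0001145). The value averaged over slides, 1.63 (SE 0.16, limma adjusted p = 8.318e-06), therefore stands for unequal slides and not for a common difference. Another background correction, normexp, brought the slide 1 difference to 1.78 and the average to 0.95, and both stayed past the threshold.

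The other Clec1b probes showed the same genotype order on slide 1 with larger gaps between slides. A_55_P1992617, the middle one in the sequences above, stood at -0.12, -0.69, 0.38 and -0.40 in deficient arrays 9 to 12 of slide 1. None of the 4 wild-type arrays was well above background, with levels between -6.53 and -5.05. Deficient signal was thus at least 20.3-fold higher on slide 1, taking as the dim value on each array the probe's own signal or, if higher, the lowest signal of any probe well above background. Leaving out 1 deficient array at a time gave bounds from 17.7 to 22.7. The probe was well above background on these 4 deficient arrays alone, so it passed the filter only through the group in which it is high, and no p is given for it.

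The probe farthest along, A_55_P1962011, divided the wild-type arrays of slide 1. Its deficient levels there were -0.55, -1.04, 0.05 and -0.78 in arrays 9 to 12. Wild-type arrays 5 and 8 had -1.36 and -2.66 and were well above background, while arrays 2 and 6 had -5.35 and -5.61 and were not. At A_55_P1962010 and A_55_P1992617 the same arrays 5 and 8 did not stand above the other wild-type arrays together. The difference was 3.16 (SE 0.70). Besides the 4 deficient arrays of slide 1, the probe was well above background on 2 arrays, fewer than the 4 of the filter. It therefore also passed the filter only through the group in which it is high, and no p is given for it.

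On slide 2 these 2 probes were not well above background on any of the 8 arrays, with levels between -7.61 and -6.93, so no fold is given. A_55_P1962010 was well above background on all 8 arrays of that slide, so detection of the 3 probes differed there. In deficient cells, slide 2 was 4.36-fold lower than slide 1 at A_55_P1962010, at least 20.5-fold lower at A_55_P1962011 and at least 26.5-fold lower at A_55_P1992617. In wild-type cells, slide 2 was higher than slide 1 by 0.90 at A_55_P1962010 (SE 0.22, limma adjusted p = 0.001985). By the rule for dim values, A_55_P1962011 came to 2.83-fold lower on slide 2 in wild-type cells. That value is no strict bound, since wild-type arrays 2 and 6 of slide 1 were dim as well. With normexp the wild-type slide difference at A_55_P1962010 was 0.20 and no longer passed (limma adjusted p = 0.293), and with the mean over the probes as the gene's level it turned to -1.43. No direction between slides is therefore given for Clec1b in wild-type cells.

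**Figure D2:**
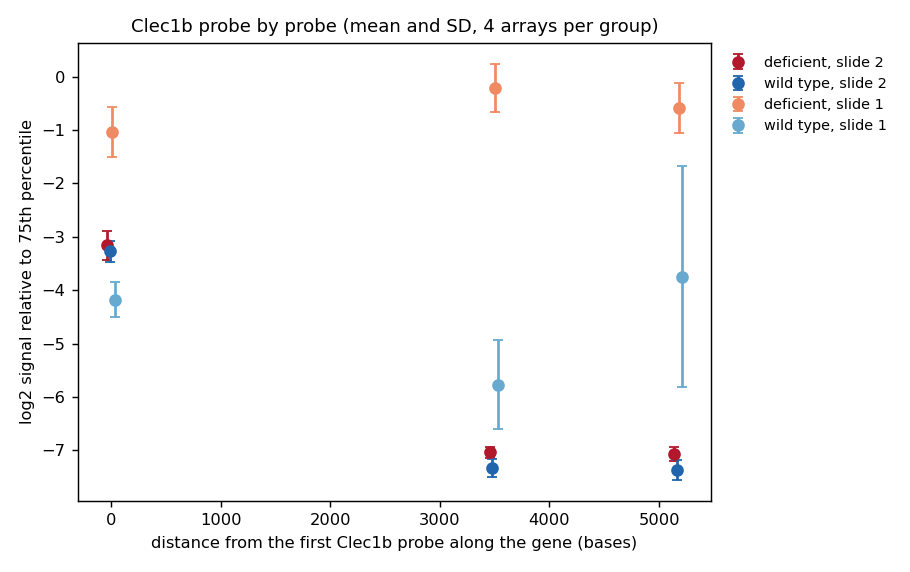
The x axis is the distance in bases from the Clec1b probe with the lowest coordinate (A_55_P1962010, A_55_P1992617 and A_55_P1962011 from left to right), and the y axis is the log2 level, with points for means and bars for SD over 4 arrays per group. Deficient arrays of slide 1 lie highest at each probe, and at the middle probe the other 3 groups had no array well above background. Levels of different probes are not comparable.

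Itgb3 encodes the β3 subunit, which pairs with αIIb in platelets and with αv in many other cells. It was higher in deficient cells on both slides. On slide 2 its brighter probe A_52_P553890 had levels of 4.02, 4.24, 4.202 and 3.21 in deficient arrays 1 to 4, against 3.08, 2.72, 3.098 and 3.09 in wild-type arrays 1, 2, 3 and 5. The groups did not overlap, but deficient array 4 lay close to the wild-type arrays. The difference was 0.92 (SE 0.25, limma adjusted p = 0.03514), 1.89-fold higher. This call was lost in 12 of 27 other settings, among them 7 of the 16 that leave out 1 array (each of deficient arrays 1 to 3 and every wild-type array of slide 2), with adjusted p up to 0.1005. Without deficient array 4 it was 1.16 (adjusted p = 0.00626).

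On slide 1 the same probe had levels of 1.89, 2.22, 1.65 and 2.20 in deficient arrays 9 to 12, against 0.29, 0.91, 1.13 and 1.36 in wild-type arrays 2, 5, 6 and 8. Every deficient array was above every wild-type array. The difference was 1.07 (SE 0.25, limma adjusted p = 0.007764), 2.10-fold higher. The slides' differences did not differ past the threshold (-0.15, SE 0.35, limma adjusted p = 0.8085), and the average over slides was 0.99 (SE 0.18, limma adjusted p = 0.001706).

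The second Itgb3 probe, A_66_P126293, had the same direction with smaller differences. Its level on slide 2 was -1.37, -1.20, -1.25 and -2.25 in deficient arrays 1 to 4, against -1.87, -2.16, -1.98 and -2.26 in wild-type arrays 1, 2, 3 and 5. Array 4 again lay apart from the other deficient arrays, here within the wild-type range. The difference was 0.55 (SE 0.24, limma over all probes, adjusted p = 0.1976), and without deficient array 4 it was 0.79 (adjusted p = 0.03296). On slide 1 its levels ran from -4.27 to -3.14 in deficient cells, against -4.63 to -4.43 in wild-type cells. Wild-type arrays 5 and 6 of that slide were not well above background. There the difference was 0.90 (SE 0.24, limma over all probes, adjusted p = 0.0157), and with normexp it was 0.33 and did not pass (adjusted p = 0.1502).

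Both Itgb3 probes were higher on slide 2 than on slide 1 in both genotypes. At A_52_P553890 the slide difference was 1.93 in deficient cells (limma adjusted p = 6.646e-06) and 2.07 in wild-type cells (limma adjusted p = 3.433e-06). At A_66_P126293 it was 2.12 and 2.48, the latter with wild-type arrays 5 and 6 of slide 1 not well above background. The median over all genes tested was 0.40 in deficient and 0.35 in wild-type cells for the same subtraction, and 76.2 and 73.9 percent of genes were called. Every slide difference given here is to be read against those medians. A slide holds 1 scan day and all other differences between the 2 sets of arrays, which cannot be told apart.

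**Figure D3:**
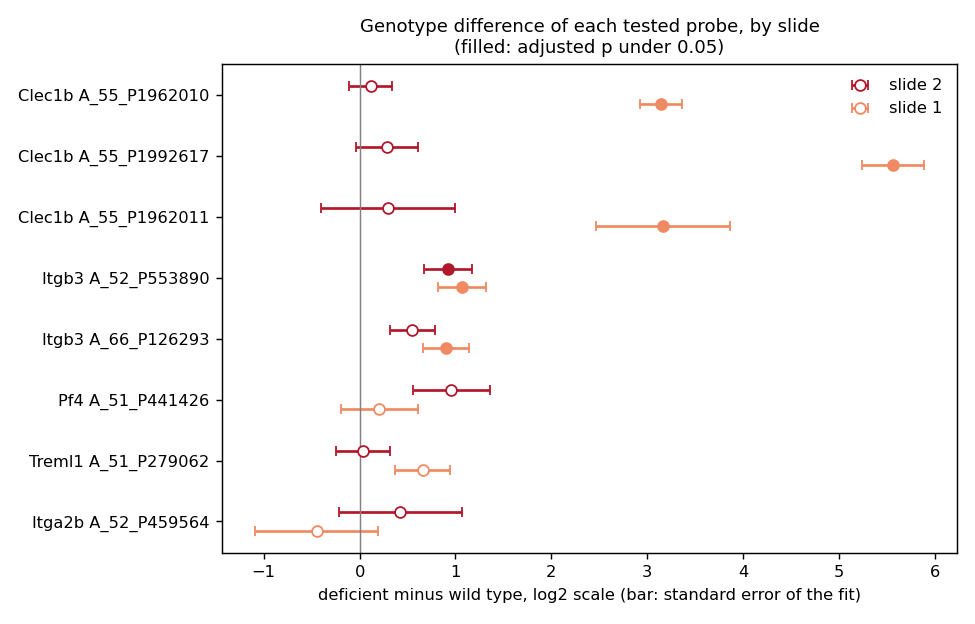
The x axis is the deficient minus wild-type difference in log2 units for each tested probe on slide 2 and slide 1, with bars of 1 standard error of the fit from 4 arrays per group. Filled points passed the adjusted p of 0.05. Clec1b probes lie near 0 on slide 2 and between 3.14 and 5.56 on slide 1, while the Itgb3 points of the slides lie close together. The point at 5.56 is A_55_P1992617, which like A_55_P1962011 entered the test only through its bright group.

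Itga2b, the αIIb partner of Itgb3 and the subunit that marks the megakaryocyte lineage, did not follow it. On slide 2 its levels were -6.16, -5.81, -4.70 and -2.57 in deficient arrays 1 to 4, of which only arrays 3 and 4 were well above background. Wild-type levels there were -5.43, -5.09, -5.68 and -4.74 in arrays 1, 2, 3 and 5. Array 4, in which Itgb3 was lowest among the deficient arrays of slide 2, was the one in which Itga2b was highest. The difference was 0.43 (SE 0.64, limma adjusted p = 0.7681), and -0.32 without that array. On slide 1 the probe was well above background on deficient array 11 (-4.21) and on no wild-type array, where levels ran from -5.30 to -4.61. Averaged over slides the difference was -0.01 (SE 0.45, limma adjusted p = 0.9897). Its SE was the largest of the 5 tested genes, so differences of the size seen for Itgb3 were not detectable with this probe.

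Pf4 encodes platelet factor 4. On slide 2 it had levels of -3.64, -4.85, -4.02 and -3.68 in deficient arrays 1 to 4, against -5.11, -5.35, -4.59 and -4.97 in wild-type arrays 1, 2, 3 and 5. Deficient array 2 lay within the wild-type range, and the others lay above it. The difference was 0.96 (SE 0.40, limma adjusted p = 0.1731), which did not pass. On slide 1 the deficient arrays spread most, with -2.71, -3.86, -2.13 and -4.19 in arrays 9 to 12. Wild-type arrays 2, 5, 6 and 8 had -3.11, -3.98, -3.30 and -3.33 and lay inside that spread. The difference was 0.21 (SE 0.40, limma adjusted p = 0.7405), and -0.16 without deficient array 11.

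Ppbp, whose product is cleaved to the neutrophil-attracting chemokine NAP-2, was near the limit of detection. It was well above background only on deficient arrays 9 and 11 of slide 1, with levels of -3.65 and -2.86. The other deficient arrays there, 10 and 12, had -4.45 and -4.59. Wild-type levels on slide 1 ran from -6.75 to -5.61. By the rule for dim values, deficient signal came to 1.58-fold higher on slide 1, and to 1.25-fold without array 11. These values are no strict bounds, since deficient arrays 10 and 12 were dim as well. Since Ppbp failed the filter it has no test in the fit. With no filter on dim probes it would be called on slide 1. That call would set a group bright on only 2 of 4 arrays against a dim group, so no p is given for it. On slide 2 all 8 arrays lay between -7.39 and -6.80 and none was well above background. The arrays with Ppbp above background, 9 and 11, were also the highest deficient arrays of slide 1 for Pf4.

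Treml1 was not well above background on any deficient array of slide 2 (-5.36 to -4.995), nor on wild-type array 2 (-6.19), while the other wild-type arrays there had -4.84, -4.99 and -4.71. Its difference on slide 2 was 0.03 (SE 0.28, limma adjusted p = 0.9688). On slide 1 it was well above background on all 8 arrays, with -3.67, -3.61, -2.78 and -3.36 in deficient arrays 9 to 12 against -3.69, -4.24, -3.91 and -4.22 in wild-type arrays 2, 5, 6 and 8. All 4 deficient arrays lay above the highest wild-type array, arrays 9 and 10 by less than 0.1. The difference of 0.66 (SE 0.28, limma adjusted p = 0.1049) did not pass. It passed with the authors' deposited values (0.44, adjusted p = 0.0414), with dim spots raised to the background floor (adjusted p = 0.01685) and without wild-type array 2 of slide 2 (adjusted p = 0.02395).

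Between slides, Treml1 was lower on slide 2 in deficient cells (at least 2.99-fold) and in wild-type cells (2.25-fold, limma adjusted p = 0.001904). Pf4 was 2.98-fold lower on slide 2 in wild-type cells (limma adjusted p = 0.002723), and in deficient cells its difference of -0.82 did not pass (limma adjusted p = 0.07664), while it passed in 6 of 25 other settings, with values from -1.14 to -0.53. Itga2b passed in neither genotype. In deficient cells it was at 1.91 with the replicate block and at -0.21 without deficient array 4 of slide 2. With that block the slide difference rests on deficient array 4 and wild-type array 5 of slide 2, the arrays outside it, so no p is given. In all, 1 member was higher and 2 were lower on slide 2 in deficient cells, and 2 were higher and 2 lower in wild-type cells, where Clec1b was no longer among the higher ones with normexp. Of all genes tested, 50.5 percent were higher and 25.6 percent lower on slide 2 in deficient cells, and 48.7 percent higher and 25.2 percent lower in wild-type cells. Members called between slides thus went in both directions, as did all genes, of which 76.2 and 73.9 percent were called. Members called by genotype were all higher in deficient cells.

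Within groups the members did not move as 1 set. Across the 16 arrays, deviations from the group mean correlated at r = 0.57 between Clec1b and Itga2b and 0.50 between Clec1b and Pf4, but at -0.67 between Clec1b and Itgb3 and -0.62 between Itgb3 and Itga2b. These are descriptions over 4 groups of 4 arrays that share slides, array scaling and RNA samples. Deficient array 11 of slide 1 had the highest level of its group at each of the 3 Clec1b probes, Pf4, Ppbp, Treml1 and Itga2b, and the lowest at both Itgb3 probes. That array also had the highest mean level of the neutrophil markers (0.57) and the macrophage markers (3.37) in its group. The same held for the T cell (0.12), NK cell (1.14), endothelial (-0.68), mast cell and basophil (-2.02) and B cell markers (5.55). It did not hold for the erythroid, dendritic cell and progenitor markers. Deficient array 4 of slide 2, low for Itgb3 and high for Clec1b and Itga2b, had a mean erythroid marker level of -1.42, against -2.47 to -2.37 on the other deficient arrays of that slide. The part of each of these cell types in the members' levels was not tested.

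The genes whose within-group deviations were most like the mean of the 5 tested members, among 20826 genes and over 16 arrays, were not the known platelet genes listed below. They were 2 transcripts named by their location (r = 0.85 and 0.84), Nrn1l (0.82), Arl4d (0.81), the chemokine gene Ccl6 (0.81), A930005H10Rik (0.81), Ctif (0.80), Marveld1 (0.80), BC096441 (0.79) and Alox5ap (0.78). Spearman's rho for these lay between 0.66 and 0.84.

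Other genes known in platelets and megakaryocytes were described from 4 lists of 80 names in all, of which 75 were on the array and 54 were tested. Over both slides 3 were higher in deficient cells, 7 were lower and the median difference was -0.04, beside -0.03 over all genes tested. The counts were 3 higher and 7 lower on slide 2, and 6 higher and 10 lower on slide 1. The 10 genes called over both slides are a share near the 17.6 percent of all genes. The 10 called on slide 2 are a larger share than the 8.6 percent of all genes there, and the 16 called on slide 1 stand beside 25.0 percent. These shares were not tested against all genes, and the lists mix directions on each slide. Of the 21 names on the array that were not tested, 11 were well above background on no array, among them Gp1ba and Gp5, which encode parts of the von Willebrand factor receptor. Gp9, a further part of it, reached 3 arrays and Gp6, the collagen receptor, 2.

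Of the adhesion receptors, 7 of 15 on the array were tested, with 2 called higher, 2 called lower and a median difference of 0.18. Esam, an adhesion molecule of endothelium and platelets, was higher by 1.16 over both slides (SE 0.31, limma adjusted p = 0.02023), and by 1.64 on slide 2. On slide 1 it was at 0.68 and did not pass (limma adjusted p = 0.2741). There it was well above background on 1 deficient array and on no wild-type array. Itgb1, the β1 integrin subunit, was higher by 0.54 over both slides (SE 0.09, limma adjusted p = 0.001277). It was at 0.25 on slide 2, which did not pass, and at 0.84 on slide 1, and the slides differed (limma adjusted p = 0.04415). Cd36, the thrombospondin receptor, was lower by 1.35 on the log2 scale, with levels of -1.08 in deficient against 0.28 in wild-type cells on slide 2, and -0.01 against 1.32 on slide 1. Cd9, a tetraspanin of platelets and of some B cells, had a difference of -0.79 (SE 0.10, limma adjusted p = 0.0001006). Fcer1g, which pairs with GPVI, had 0.33 and G6b 0.18, and neither passed.

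Of 14 tested granule cargo genes, 1 was higher and 1 lower, and the median difference rounded to 0. Vwf, which encodes von Willebrand factor, had a difference of 1.91 on slide 1 (SE 0.37, limma adjusted p = 0.002707) and 0.33 on slide 2 (limma adjusted p = 0.6809). Its slides' differences did not differ past the threshold (-1.59, limma adjusted p = 0.05536). Serpine2, a protease inhibitor, was lower, at -1.57 over both slides (SE 0.19, limma adjusted p = 8.472e-05). Cd63 at 0.45 and Clu at -0.48 did not pass over both slides. Cd63 was higher on slide 1 by 1.41 (SE 0.29, limma adjusted p = 0.004061). On slide 2 it was at -0.51 and did not pass (limma adjusted p = 0.3375).

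Of 22 tested signalling and cytoskeletal genes, 3 were lower and none higher, with a median of -0.02. They were Rgs18, a regulator of G protein signalling (-2.85, SE 0.69, limma adjusted p = 0.01142), Gucy1b3, a subunit of guanylate cyclase, and Ptgs1, cyclooxygenase 1 (-0.84, SE 0.23, limma adjusted p = 0.02234). Rgs18 passed on slide 1 (limma adjusted p = 0.01438) but not on slide 2 (limma adjusted p = 0.2428). It was well above background on 1 deficient array of slide 2 and 2 of slide 1, against 4 wild-type arrays on each slide. Its averaged value thus leans on dim signal in deficient cells. The Ptgs1 average stands for unequal slides, with -1.60 on slide 2 and -0.08 on slide 1 (limma adjusted p of the difference between slides = 0.04032). Gucy1b3 was at least 1.83-fold lower in deficient cells on slide 2 and not well above background in either genotype on slide 1. It was well above background only on the 4 wild-type arrays of slide 2 and so passed the filter through the group in which it is high, and its call is no support for the list's count. F2r at -0.56 and Fermt3, which activates integrins in platelets and leukocytes, at 0.07 did not pass over both slides. Fermt3 was called on each slide in opposite directions. It was at 0.36 on slide 2 (limma adjusted p = 0.006638) and at -0.22 on slide 1 (limma adjusted p = 0.03738). Of 11 tested transcription regulators and receptors of megakaryocytes, Meis1 was lower (-1.21, SE 0.20, limma adjusted p = 0.001188) and none was higher, with a median of -0.05. Meis1 was at -1.99 on slide 2 and at -0.42 on slide 1, where it did not pass (limma adjusted p = 0.3042), and the slides differed (limma adjusted p = 0.01997). Fli1 at -0.07 and Cbfa2t3 at -0.06 did not pass.

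The CLEC-2 pathway list holds genes that B cells use as well. Of its 11 tested genes, 2 were higher, 1 was lower and the median difference was 0.01. Grap2, an adaptor, was higher by 0.73 (SE 0.09, limma adjusted p = 7.455e-05) and Syk by 0.28 (SE 0.08, limma adjusted p = 0.02319). Lat, the adaptor downstream of Syk in platelets, had a difference of -0.56 (SE 0.14, limma adjusted p = 0.01327). Lyn at -0.04 and Lcp2 at 0.08 did not pass over both slides. Lyn was lower on slide 1 (-0.29, limma adjusted p = 0.01421) and at 0.20 on slide 2, which did not pass (limma adjusted p = 0.1269). The ligand gene Pdpn was well above background on none of the 16 arrays.

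Of the 10 other integrin genes tested, 3 were higher, none was lower and the median difference was 0.08. Itga6 was higher by 0.64 (SE 0.08, limma adjusted p = 6.293e-05), and Itgal and Itgb2, the subunits of the leukocyte integrin LFA-1, by 0.57 and 0.17. On slide 2 Itga6 was at 0.34 and Itgb2 at 0.01, and neither passed, against 0.94 and 0.33 on slide 1, where both did. The slides differed for both genes (limma adjusted p = 0.01989 and 0.03112). Itgav, the αv partner of Itgb3, had levels of -1.23 in deficient and -1.13 in wild-type cells on slide 2, against -1.06 and -1.01 on slide 1, and a difference of -0.08 (SE 0.08, limma adjusted p = 0.5876). Itga5 at 0.40 did not pass. Thus neither α partner of Itgb3 passed where Itgb3 did.

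Of 7 genes on the array from the CXC chemokine list, 2 were tested, since none of the 5 listed chemokines was well above background on more than 1 array. The receptor Cxcr3 was higher, by 2.26 (SE 0.16, limma adjusted p = 5.238e-07), and Cxcr2, the receptor for the product of Ppbp, was at 0.19 and did not pass. Of the 4 tested genes near Treml1 in the TREM family, Trem1 was lower, at -0.49 (SE 0.13, limma adjusted p = 0.01588), and none was higher. Trem3 at 0.21 and Treml2 at -0.22 did not pass over both slides. Treml2 was lower on slide 1 (-0.44, limma adjusted p = 0.0433) and not called on slide 2 (limma adjusted p = 0.999). The medians of these lists were 1.22 and -0.12.

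**Figure D4:**
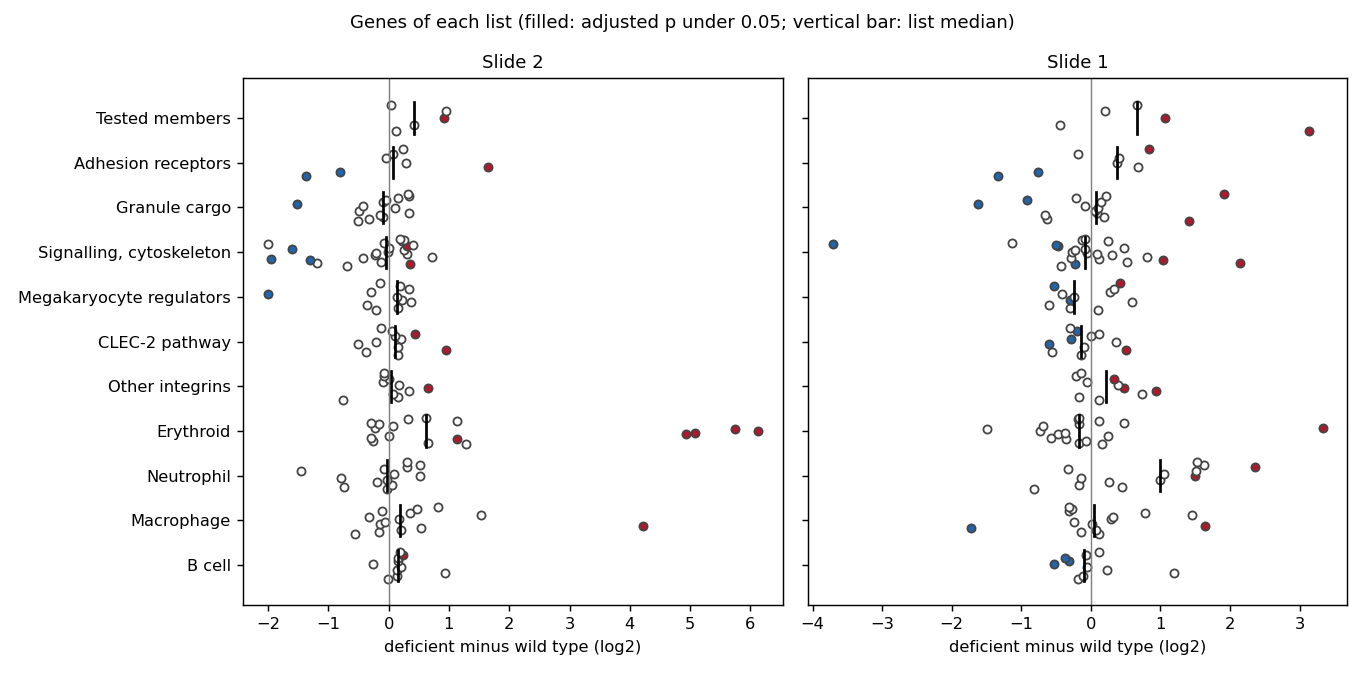
Each point is a gene, with its deficient minus wild-type difference in log2 units on slide 2 (left panel) and slide 1 (right panel), by gene list down the page. Filled points passed the adjusted p of 0.05 and vertical bars are list medians. Other platelet genes spread to both sides of 0, 4 erythroid genes lie above 4 on slide 2, and most neutrophil genes lie above 0 on slide 1.

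Markers of other cells were read beside the members, since in bulk RNA fewer cells of a type and less RNA per cell cannot be told apart. Over both slides, the erythroid list had 5 of 17 tested genes higher and none lower, led by Hbb-b1 and Hba-a2, which encode globins. Hbb-b1 was at least 31.1-fold higher in deficient cells on slide 2, and on slide 1 its difference was -0.74 (limma adjusted p = 0.3956). Summed erythroid signal, in multiples of the 75th percentile, ran from 27.9 to 57.8 on deficient and from 13.1 to 14.4 on wild-type arrays of slide 2, and from 200.3 to 567.9 against 169.2 to 892.9 on slide 1. The 5 erythroid genes called on slide 2 were the globin genes Hba-a1, Hba-a2, Hbb-b1 and Hbb-b2 and the carbonic anhydrase gene Car2, and the other 12 tested did not pass there. The genotypes' summed signal did not overlap on slide 2 and overlapped on slide 1.

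Of 13 tested neutrophil markers, 1 was higher over both slides (Ly6g, 1.01, with 0.52 on slide 2 and 1.49 on slide 1) and 2 on slide 1, where the list's median was 1.00. Their summed signal on slide 1 ran from 152.3 to 314.1 on deficient and from 156.1 to 232.0 on wild-type arrays, and so overlapped. A large part of that sum is Csf3r, with means of 7.27 and 7.44. The mean log2 level of the list ran from -1.31 to 0.57 against -2.34 to 0.34 there and overlapped as well. Of 14 macrophage markers, Cd5l was higher (2.93, and at least 8.07-fold on slide 2), and none was lower over both slides. The macrophage list had all 14 genes lower on slide 2 than on slide 1 in deficient cells and 13 in wild-type cells, with medians of -5.75 and -6.42, and 4 and 6 of them were well above background on no array of slide 2. Its summed signal on slide 2 ran from 8.37 to 10.6 in deficient and from 8.87 to 9.90 in wild-type cells, and on slide 1 from 125.8 to 237.0 against 88.4 to 212.9.

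Over both slides the other lists had few calls. Of 12 T cell markers Cd3g (1.07) and Lck (0.32) were higher, of 8 dendritic cell markers Flt3 (0.49), and of 5 progenitor markers Ly6a (1.03). Cd3g was well above background on no array of slide 2 (means of -5.665 in deficient and -7.431 in wild-type cells). On slide 1 its means were -0.376 and -0.745, so the averaged value leans on dim signal. Of 6 endothelial markers Eng (-0.64) was lower. The slides differed for Lck (0.60 on slide 2, 0.05 on slide 1) and Ly6a (0.61 and 1.44). None of 7 NK cell or 3 mast cell and basophil markers was called. The B cell markers were well above background on all 16 arrays, and of 10 tested Cd22 (1.07) was higher and Cr2 (-0.39) lower. What share of the members' signal came from platelets, megakaryocytes or B cells was not tested.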

How the data were processed

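Total RNA of B220-selected splenic B cells was hybridised, in Cy3 alone, to 16 Agilent mouse arrays. The spot intensity analysed is the authors' scanner output, which per the file headers was made with Feature Extraction 10.7.3.1, was background-subtracted and detrended, holds surrogate values for dim spots and was not normalized between arrays. The authors' deposited table of log2 values, with column medians of 6.49 to 6.50 on slide 2 and 5.58 to 5.60 on slide 1, was scaled by slide and served as an alternative within slides. How it was made is not stated in the labels. The submitters' processing notes name limma for slide 2 samples.

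Signals were divided by the 75th percentile of each array's spots that are no controls (596 to 990 on slide 2, 576 to 851 on slide 1) and put on the log2 scale. Of 62976 spots, 3671 controls were left out. The number of probes well above background per array was 29960 to 34200 (slide 2) and 26049 to 29244 (slide 1), and the number of arrays limits the precision. Arrays correlated across genes at r of 0.981 to 0.997 within groups and 0.890 to 0.916 between slides.

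All differences came from 1 fit (limma 3.58.1 in R 4.3.3) of the 4 group means, over 22744 genes or 32886 probes, adjusted by Benjamini-Hochberg. SE is the standard error of the fit, with 4 arrays per group. The script was tested on simulated data. All accessions of the 9 probes matched their symbols in RefSeq (GRCm38.p6). Named are all 6 members, up to 6 called genes and the first 2 genes not called of each related list, the 2 largest called genes of each other cell type list, and the 10 most alike genes; other genes were named after their values were seen. The members and lists were chosen with earlier results of these data known. Alternatives were median and quantile scaling, normexp, the deposited table, other filters and probe rules, a floor for dim spots, slide, replicate and weighting terms, and leaving out each array.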

Additional observations from a re-analysis of the deposited data

Results flagged for a closer look

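Clec1b had genotype differences that differed between the slides by the test of that difference itself. The slide 2 difference minus the slide 1 difference was -3.03 at its brightest probe (limma adjusted p = 0.0001145) and -5.27 at probe A_55_P1992617. That probe was well above background only on the 4 deficient arrays of slide 1 and passed the filter through them alone, so its value compares 1 bright group with 3 dim ones and adds no support to the first.

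In groups of 4 arrays, 36 were examined for an array far from the other 3, and 2 were found. Chance alone gives about 1 in 20. Deficient array 4 of slide 2 was the lowest at Itgb3 probe A_66_P126293, at -2.25. Wild-type array 2 of slide 2 was the lowest at Itgb3 probe A_52_P553890, at 2.72.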

How the results depend on the processing

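Clec1b over both slides (0.95 to 2.10), on slide 1 and in the test of its slides' differences, and Itgb3 over both slides (0.86 to 1.11) and on slide 1, kept direction and call in every alternative run. The number of members called on slide 2 was 1 in the fit reported and 0 with quantile scaling, the deposited table, no filter on dim probes, the mean over probes and a replicate block on slide 2, and it ran from 0 to 1 over the fits that leave out 1 array. The number whose difference differs between slides was 1, 2 with no filter, and from 1 to 2 with 1 array left out (2 without wild-type array 2 of slide 2). The added gene was Treml1 without that array. With no filter it was Ppbp, which was well above background on only 2 arrays, so that count adds no support. Itga2b over both slides turned to 0.03 with median scaling, 0.11 with quantile scaling, 0.044 with normexp, 0.09 with the deposited table, 0.36 with a floor, and ran from -0.39 to 0.21 with 1 array left out. Other values below the threshold also turned. Treml1 on slide 2 was -0.026 with normexp, -0.018 with a floor, and ran from -0.30 to 0.19 with 1 array left out. The Itgb3 difference between slides was 0.16 with array weights and ran from -0.30 to 0.088 with 1 array left out, and at A_66_P126293 it was 0.082 with normexp. Without deficient array 4 of slide 2, Clec1b on that slide was -0.021 (up to 0.21 without another array), Itga2b on that slide -0.32 (up to 0.88) and Itga2b between slides in deficient cells -0.21 (up to 0.99). Pf4 on slide 1 was -0.16 without deficient array 11 (up to 0.53 without another). Clec1b between slides in wild-type cells was -1.43 with the mean over probes. A_55_P1992617 of Clec1b on slide 2 was -0.18 with normexp and -0.12 with the deposited table. The causes were not tested, except that fewer arrays leave less to estimate from.

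Labels number 3 arrays alike in both genotypes of slide 2. Their deviations correlated at 0.01, 0.12 and 0.07, against at most -0.08, 0.06 and 0.10 with the other numbers. Such low values do not settle whether the numbers pair the arrays, and the fit reported has no replicate block. The replicate block called 3183 genes over both slides, against 3999 without it, and turned Itga2b between slides in wild-type cells to 1.04. With this block, differences between slides rest on deficient array 4 and wild-type array 5 of slide 2. Genes called over both slides fell to 2234 with slide as a random block. On slide 2, 1955 genes were called, 6256 with array weights, 2963 with that slide fitted alone, and 1108 and 1278 without wild-type array 1 or 3. On slide 1, 5678 were called and 2213 with that slide alone. The slides' differences differed for 3609, 2190 with quantile scaling, 2306 with no filter and 6108 with weights. Median scaling moved the share of higher calls over both slides to 58.3 percent, beside 43.4 percent. Among other named genes, the calls of Esam, Gucy1b3, Ptgs1, Lat, Syk, Itgb2 and Trem1 were lost with slide as a random block. Probe A_55_P1962011 of Clec1b over both slides was not called in 9 of 26 alternatives. That probe passed the filter only through the group in which it is high, so its calls in the others add no support. The deposited table gave no comparison of slides, Itga2b could not be fitted where 8 arrays had to be above background, and slide blocks gave values only over both slides. Signal near background limits Itga2b, Ppbp and Treml1.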
